A study of Homo sapiens with 6 samples.

Results

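The protein genes of the cytosolic ribosome were picked out of a 3′-end RNA sequencing table by their symbols: every region named RPL or RPS followed by a number, and every RPLP gene, except RPS27L. The rule found 58 genes among 9588 gene names. They held 63 of the 14686 regions in which reads gather, and a gene with several regions was represented by the one with the highest mean. Of the members, 35 belong to the large (60S) subunit by name and 23 to the small (40S) subunit.

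The 6 libraries came from passage 51 of H9, a widely used line of human embryonic stem cells (hESCs). Endoderm was obtained from hESCs over 6 days in activin A at 100 ng/ml, with fetal bovine serum raised through 0%, 0.2% and 2% (day 1, day 2 and thereafter) and a medium change at day 3, and the endoderm libraries were taken in G1 (0 h), G1/S (3 h) and S phase (6 h). The hESCs were grown on matrigel in medium conditioned by mouse embryonic fibroblasts, and their libraries were taken in G1 (0 h), G1/S (2 h) and S (3 h). Each cell type and phase has 1 library, and the effects of activin A, serum, medium, day and cell type cannot be told apart. The G1/S and S libraries were taken at other hours in endoderm than in hESCs. Neither the event from which the hours count nor the way cells were brought into phase is given in the sources used here. Library depth ran from 2502792 reads in endoderm S up to 6203079 in hESC S. The unit, called signal, is the number of reads scaled by the size factor of the library, so that a single read counts as 1.71 in endoderm S and 0.591 in hESC S. All 6 endoderm markers measured were higher in endoderm by limma at an adjusted p under 0.05 (summed signal 4449 to 8012 in endoderm and 159 to 253 in hESCs). Of 6 hESC markers, 3 were lower in endoderm (SOX2, DNMT3B and UTF1, with a summed signal of all 6 of 978 to 1602 in endoderm and 2847 to 4115 in hESCs). The others were not called: POU5F1 differed by -0.01 on the log2 scale, LIN28 by 0.41 and TDGF1 by 0.98 (limma adjusted p = 0.989, 0.551 and 0.156). Markers of other cell types moved too. The fibroblast markers COL1A1 and THY1 (2 of 5 listed were measured) were both lower in endoderm (summed signal 1754 to 3300 in endoderm and 5052 to 9017 in hESCs). The mesoderm markers MIXL1 and TWIST1 (2 of 4) were both higher (529 to 1549 in endoderm and 40.9 to 77.0 in hESCs). Of the neuroectoderm markers (2 of 3, summed signal 4937 to 11110 in endoderm and 5889 to 8962 in hESCs) PAX6 was higher and NES was not called, and of the trophoblast markers (2 of 3, 133 to 291 in endoderm and 188 to 281 in hESCs) GATA3 was higher and KRT7 lower. The part of these lists in the results below was not tested.

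Ribosomal proteins bind and stabilise the ribosomal RNAs of both subunits, and cells make them in matched amounts. Their messenger RNAs are among the most abundant in growing cells, and most begin with a cytosine followed by an unbroken run of pyrimidines, the 5′ terminal oligopyrimidine (TOP) start. Through it the kinase mTOR, with the RNA-binding protein LARP1, sets how strongly these messages are translated, so their level and their translation can part ways. Nearly every one of these genes has also left processed pseudogenes in the human genome, near-identical copies of its spliced message, and reads that match several places cannot be assigned with certainty.

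The TOP start is the sequence feature these messages are known for, so the annotated starts of a few members described below are shown. Each window has 12 bases before and 18 bases from the annotated transcription start of RefSeq on GRCh38.p14, 5′ to 3′ on the strand of the gene, and capitals mark the pyrimidine run that opens with a C at the start. RPS25 (chr11:119018326-119018355, minus strand) and RPL29 (chr3:51995878-51995907, minus strand) were higher in endoderm. RPL14 (chr3:40457327-40457356, plus strand), RPL11 (chr1:23691794-23691823, plus strand), RPLP2 (chr11:809955-809984, plus strand) and RPS12 (chr6:132814557-132814586, plus strand) stand for members that vary between libraries, for the abundant members and for the stalk. RPS4X (chrX:72277231-72277260, minus strand) and RPL27 (chr17:42998407-42998436, plus strand) have no such run at the annotated start.
RPS25: gagcagcgcttcCTTTTTgtccgacatctt
RPL29: cgcagcccctttCTCTTCCggttctaggcg
RPL14: cgggtcttcttcCTTCTCgcctaacgccgc
RPL11: aagctccgctttCTCTTCCTgctctccatc
RPLP2: cgtcggcgccttCCTTTTCCTCCCTgtcgc
RPS12: tgcggatgaggcCTCTTTCCCTgccgccgc
RPS4X: gtctccagccccaatttctacgcgcaccgg
RPL27: gggtgaaaggttagcggaagtgtccttctt

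Of the 58 members, 48 had an entry in the promoter table. A C followed by at least 4 pyrimidines at an annotated start, searched on the strand of the gene only, was found in 36 of these 48 (75%), against 5.14% of the 27305 genes in the table. The mitochondrial ribosomal protein genes, whose products form the separate ribosome of mitochondria, carried it in 6 of 74 (8.11%). The runs of the members were 6 to 19 bases long, with a median of 8. The 12 members with an entry and no such run were RPL15, RPL19, RPL27, RPL3, RPL32, RPL4, RPL7L1, RPL9, RPS15, RPS28, RPS29 and RPS4X. An annotated start may lie some bases from the start a cell uses. A missing run says only that none opens exactly at the annotated base. Windows of RPL27, RPL4, RPL9, RPL15, RPL32, RPS15 and RPS28 hold one further in, and in windows of RPL19 and RPL3 a run begins before that base.

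The members differed widely in level within each library. The most abundant was RPL8, which lies by the peptidyl transferase centre, whose signal in the order G1, G1/S, S was 12474, 24125 and 14736 in endoderm and 15117, 20373 and 13720 in hESCs. In the same order, kept for all values below, RPL11, a protein of the 5S ribonucleoprotein that can bind and inhibit the p53 ligase MDM2, had 14814, 22235 and 14932 in endoderm and 11533, 18377 and 17526 in hESCs. In RPL8 and RPL11 the cell types overlapped, and the G1/S library was the highest of its type. RPS16, a small subunit protein, had 8231 to 18335 in endoderm and 11924 to 14665 in hESCs. At the other end stood RPL3, an essential protein of the peptidyl transferase centre, with 7.60, 9.98 and 6.85 in endoderm and 15.9, 8.33 and 28.4 in hESCs. RPL9 had 14.5, 16.6 and 10.3 in endoderm and 12.1, 12.5 and 15.4 in hESCs, and RPS10 had 6.21, 16.6 and 18.8 in endoderm and 9.08, 23.9 and 10.04 in hESCs. Signal is not divided by transcript length, since the assay reads the 3′ end of each transcript, so the order of the members is a description of the reads counted at each region. The order of levels was nearly the same in both cell types (Spearman's rho 0.955 and Pearson's r 0.96 on the log2 scale across the 58 members, which share their libraries and are not replicates).

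**Figure D1:**
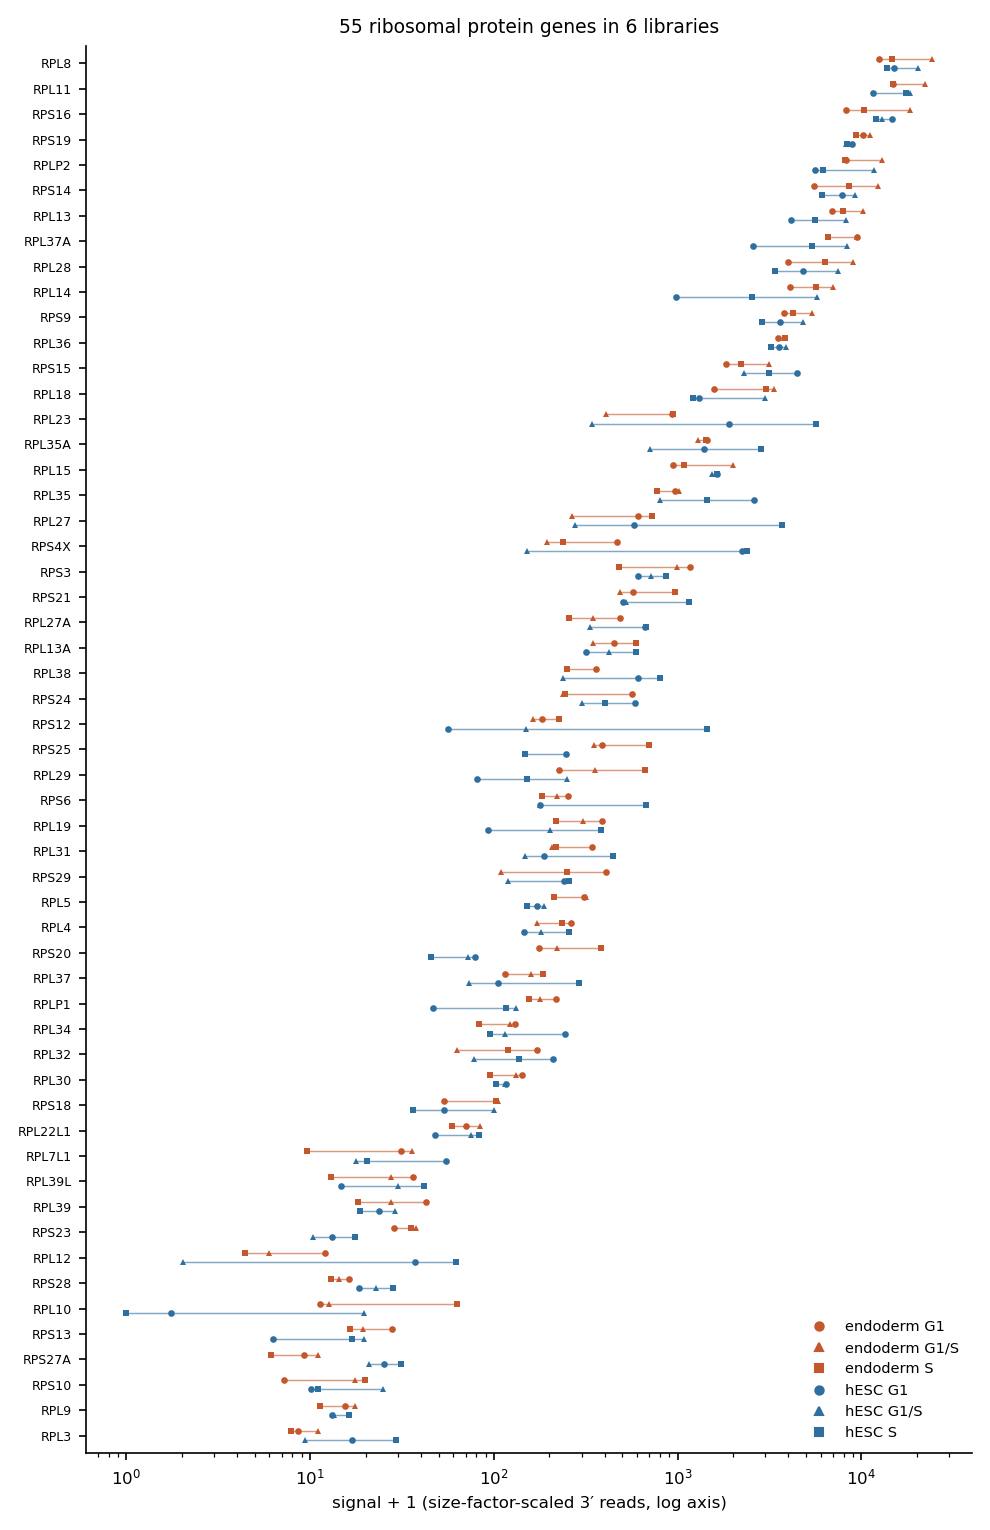
Signal + 1 (log axis) of 55 members, ordered by mean signal, with the 3 endoderm libraries above the 3 hESC libraries of each gene and a line over their range. The means run over 3 orders of size, with RPL8 at the top and RPL3 at the bottom, and the longest hESC lines belong to RPL10, RPL12, RPS12, RPL23, RPS4X and RPL27.

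Level went with the number of processed copies. The 21 members with a mean signal over 1000 have a median of 3 copies by name in GENCODE v29, the 23 members between 100 and 1000 have 11, and the 14 members under 100 also have 11. Across the 58 members, Spearman's rho between mean signal and copies was -0.45. RPL28, a member without any copy, had a signal of 3389 to 8982 over the 6 libraries, whereas RPL12, a protein at the base of the stalk with 49 copies, had 1.04 to 60.8. Exceptions lay in both directions: RPL35A, with 18 copies, had 704 to 2851, while RPS13, with 1 copy, had 5.30 to 26.9. Of 82 coding genes whose symbols match the rule in that annotation, 24 had no region under that name among those analysed here, and these have a median of 14.5 copies, against 6 for the 58 members. Among them are RPLP0, the protein on which the stalk is built, and RPL23A, RPL21 and RPL7, with 89, 66 and 61 copies. GC content also went with level, with a rho of 0.48 between mean signal and the GC share of the last 500 transcript bases. The part of copies and of GC in these levels was not tested, and each comparison below is made within a gene.

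**Figure D2:**
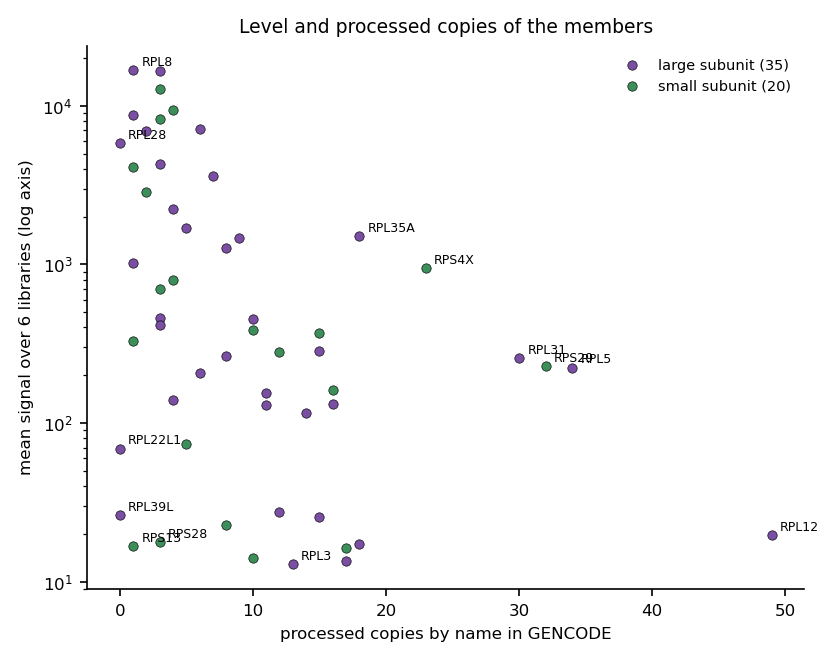
Mean signal over the 6 libraries (log axis) against processed copies by name in GENCODE v29, for 35 large subunit members and 20 small subunit members. Members with a signal over 1000 lie mostly at few copies, RPL12 lies alone at 49 copies, and RPS13, RPS28, RPL22L1 and RPL39L are low with 3 copies or fewer.

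Together the members took a similar share of the reads in both cell types. The share was 3.43%, 3.70% and 3.26% in endoderm (3.46% ± 0.221, SD, n = 3) and 3.59%, 3.68% and 3.78% in hESCs (3.68% ± 0.0976, SD, n = 3). The 2 ranges overlapped, and with 95% Wilson intervals such as 3.24% to 3.28% in endoderm S the counting error was far smaller than the spread between libraries. PCR duplicates cannot be recognised, so such intervals describe counting error alone. The large subunit members took more reads than the small subunit members in 5 of the 6 libraries. The exception was hESC G1, with 1.62% for the large and 1.97% for the small subunit, against 1.98% and 1.45% in endoderm G1. In hESC G1, RPS15 stood at its highest signal of the 6 libraries (4435), and RPL14, RPL37A and RPL13 at their lowest (972, 2565 and 4151). In bulk samples such a share cannot tell fewer cells of a type from less RNA per cell. The mitochondrial ribosomal protein genes (71 measured) took 0.753% ± 0.0661 in endoderm and 1.005% ± 0.0619 in hESCs (SD, n = 3), without overlap between the types (0.679% to 0.806% in endoderm and 0.938% to 1.06% in hESCs). The difference between the 2 families was not tested.

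The comparison of endoderm with hESCs asks how the transcripts of the differentiated cells differ from those they came from. By limma at an adjusted p under 0.05, 3 of 58 members rose in endoderm (RPS20, RPS25 and RPL29, 5.17%) and 0 fell. Of all 14657 regions tested, 6.9% rose and 7.6% fell. A region of RPL30 with a lower mean than the one counted was also called higher (2.65 ± 0.70, limma adjusted p = 0.0453), with 1 read in hESC G1/S. At an unadjusted p under 0.05, 9 members were higher (16.2% of all regions) and 2 lower (18% of all regions), in all 19.0% of members, against 34.2% of all regions and 14.5% past the adjusted threshold. On the same reads edgeR called 1 member higher (RPS20, against 5.57% of all regions) and 0 lower (8.01% of all regions). DESeq2 called 6 higher (10.3% of members, among them RPL10, RPL14, RPL29, RPS20 and RPS25, against 9.41% of all regions) and 1 lower (RPS4X, against 9.56%). The log2 differences of the members had an SD of 0.81, against 1.34 over all regions and 1.18 over named regions. That SD was 0.55 for members with a mean signal over 1000, 0.84 between 100 and 1000 and 1.08 under 100. The median log2 difference of the members was 0.09, against 0.02 over all regions. The sign of that median was not stable: phase by phase it was 0.20 (G1), 0.24 (G1/S) and -0.20 (S, with 22 of 58 members above 0), and it was -0.05 over all libraries with quantile normalisation. The members numbered 34 with a positive and 24 with a negative difference. All 58 passed the filter on low values.

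RPS20, a small subunit protein of the 40S head, was the member with the lowest adjusted p. Its signal was 174, 220 and 380 in endoderm, against 77.9, 70.8 and 44.3 in hESCs. Every endoderm library lay above every hESC library, and the 2 types lay furthest apart in S. The mean was 258 ± 108 in endoderm and 64.3 ± 17.7 in hESCs (SD, n = 3), a ratio of 4.01, and the fitted log2 difference was 1.95 ± 0.41 (SE, limma adjusted p = 0.0247). RPS20 has 16 processed copies.

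RPS25, a small subunit protein that some viral internal ribosome entry sites need, had 388, 348 and 698 in endoderm, against 247, 147 and 146 in hESCs. The types did not overlap, and the endoderm S library stood above the other 5. The ratio of means was 2.66 and the fitted log2 difference 1.38 ± 0.35 (SE, limma adjusted p = 0.0408). Its region, at 118394308 to 118394191 on chromosome 11 as deposited, belongs to a gene with 1 processed copy. RPL29, a large subunit protein that also binds heparin, had 224, 354 and 659 in endoderm, against 79.4, 249 and 151 in hESCs. Each phase was higher in endoderm, but endoderm G1 lay below hESC G1/S, so the types overlapped. The ratio of means was 2.58 and the fitted log2 difference 1.37 ± 0.36 (SE, limma adjusted p = 0.0436). Its region lies at 52002977 to 52002788 on chromosome 3 as deposited, and it has 15 processed copies. The builds in the submitters' processing notes are hg18 and NCBI36, and exons or untranslated regions are not given, since no annotation of that build was used here. The calls on RPS20, RPS25 and RPL29 held when either G1 library was left out and were lost when any one G1/S or S library was. Their limma adjusted p then lay between 0.0665 and 0.0904 for RPS20, 0.126 and 0.157 for RPS25 and 0.0610 and 0.161 for RPL29, and the log2 differences were 1.38 to 2.11, 0.95 to 1.45 and 0.997 to 1.80, in the same direction. Without an intensity trend limma called none of them (adjusted p = 0.0675 for RPS20, 0.105 for RPS25 and 0.106 for RPL29). The calls on RPS25 and RPL29 were also lost with quantile normalisation (limma adjusted p = 0.0536 and 0.0634) and with edgeR (adjusted p = 0.0534 and 0.0574), and that on RPL29 without the phase term, the replicate block (limma adjusted p = 0.0914).

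**Figure D3:**
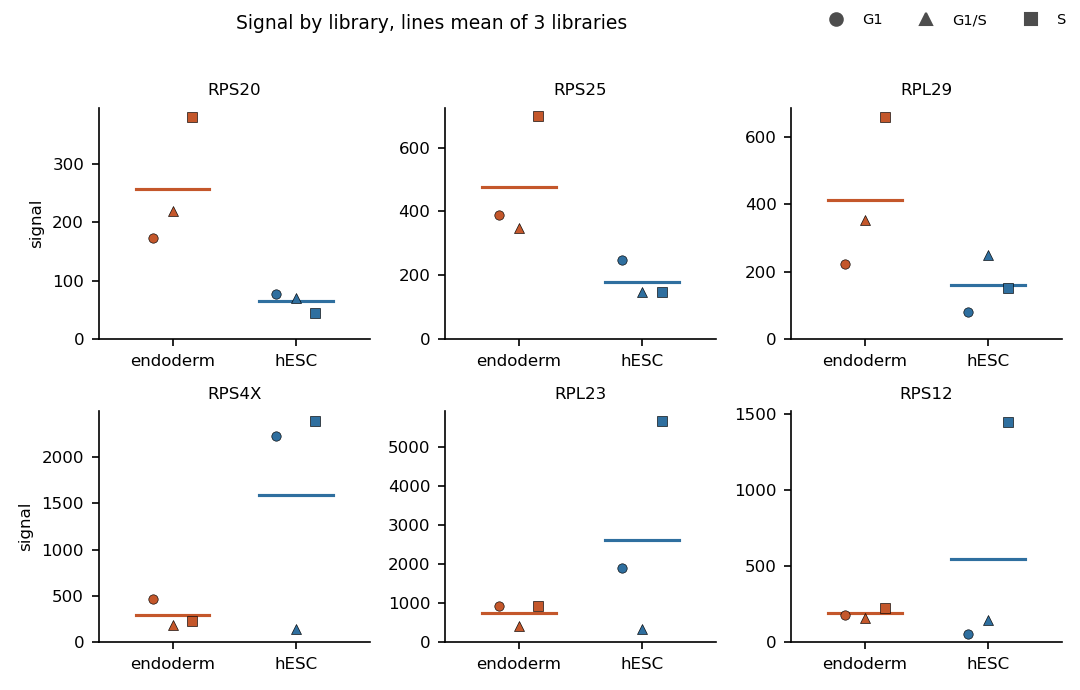
Signal by library of 6 members, endoderm at the left and hESC at the right of each panel, with circles for G1, triangles for G1/S, squares for S and a line at the mean of the 3 libraries. RPS20 and RPS25 do not overlap between types, and the hESC libraries of RPS4X, RPL23 and RPS12 lie both below and above those of endoderm.

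The other members furthest above hESCs did not pass the threshold. RPL14 had 4101, 7006 and 5637 in endoderm, against 972, 5692 and 2536 in hESCs (1.18 ± 0.33, limma adjusted p = 0.0529). RPL10, which joins the 60S subunit last and is needed for subunits to join, had the largest fitted difference, 2.67 ± 1.17, with limma adjusted p = 0.153. Its signal was 10.4, 11.6 and 61.6 in endoderm, against 0.757, 18.7 and 0 in hESCs. In hESC S no read was found, with a 95% counting interval that reaches a signal of 2.18, and hESC G1 had 1 read. The value rests on few reads and on a gene with 18 copies.

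On the lower side, RPS4X, the X-linked copy of the small subunit protein S4, had 464, 193 and 236 in endoderm, against 2230, 150 and 2383 in hESCs. The G1/S libraries of both types were low and alike, and hESC G1 and S stood far above all others. The mean was 298 ± 146 in endoderm and 1588 ± 1247 in hESCs (SD, n = 3), and the fitted log2 difference was -1.74 ± 0.61 (SE, limma adjusted p = 0.0943). It fell in endoderm by limma when the endoderm or the hESC G1/S library was left out (adjusted p = 0.0320 and 0.0414, log2 difference -2.80 in both), and by DESeq2 on all libraries (adjusted p = 0.00747). Its region lies at 71409419 to 71409170 on the X chromosome as deposited, and it has 23 processed copies. RPS27A, made as a fusion with ubiquitin, had 8.29, 9.98 and 5.13 in endoderm, against 24.2, 19.8 and 30.1 in hESCs, without overlap (-1.57 ± 0.53, limma adjusted p = 0.0843). The endoderm libraries have as few as 3 reads there. RPL12 had 11.05, 4.99 and 3.42 in endoderm, against 36.3, 1.04 and 60.8 in hESCs (-1.29 ± 0.98, limma adjusted p = 0.377), and RPL3 had a difference of -0.88 ± 0.61 (limma adjusted p = 0.337).

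RPL23, a large subunit protein that can also bind MDM2, had 936, 408 and 936 in endoderm, against 1906, 339 and 5654 in hESCs. The hESC libraries lay both below and above those of endoderm, and the log2 difference was -1.12 ± 0.48 (limma adjusted p = 0.146). RPL5, which forms the 5S ribonucleoprotein with RPL11, had 307, 314 and 212 in endoderm, against 170, 186 and 151 in hESCs. All 3 endoderm libraries lay above all hESC libraries, at a ratio of means of 1.64, and limma gave a log2 difference of 0.69 ± 0.27 (adjusted p = 0.118), while RPL11 differed by 0.14 ± 0.20 (adjusted p = 0.660). RPL5 has 34 processed copies and RPL11 has 3.

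The stalk recruits elongation factors to the ribosome through the acidic proteins RPLP1 and RPLP2. RPLP1 had 216, 178 and 154 in endoderm, against 45.4, 130 and 115 in hESCs, without overlap (log2 difference 1.03 ± 0.42, limma adjusted p = 0.132). RPLP2 had 8213, 12898 and 8118 in endoderm, against 5553, 11649 and 6182 in hESCs. Endoderm was higher in each phase, but the hESC G1/S library lay above endoderm G1 and S (0.37 ± 0.19, limma adjusted p = 0.218).

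Over all members, 7 had every endoderm library above every hESC library (among them RPL5, RPLP1, RPS19, RPS20, RPS23 and RPS25, 12.1% of members), as 14.7% of all regions did. The opposite held for 2 members (RPS27A and RPS28, 3.45%), as for 18.7% of all regions. RPS19, the gene most often mutated in Diamond-Blackfan anaemia, was among the steadiest abundant members, with 10252, 11070 and 9387 in endoderm and 8833, 8286 and 8388 in hESCs (0.26 ± 0.19, limma adjusted p = 0.342). RPL36 was as steady, with 3519, 3775 and 3846 in endoderm and 3553, 3866 and 3209 in hESCs. Phase by phase, and with 1 library on each side, endoderm was more than 2-fold above hESCs for 12 members in G1 (24.9% of all regions) and more than 2-fold below for 6 (24.4%). In the G1/S libraries 6 members were above (17.1%) and 0 below (17.7%), and in S phase 10 were above (20%) and 15 below (24.9%).

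**Figure D4:**
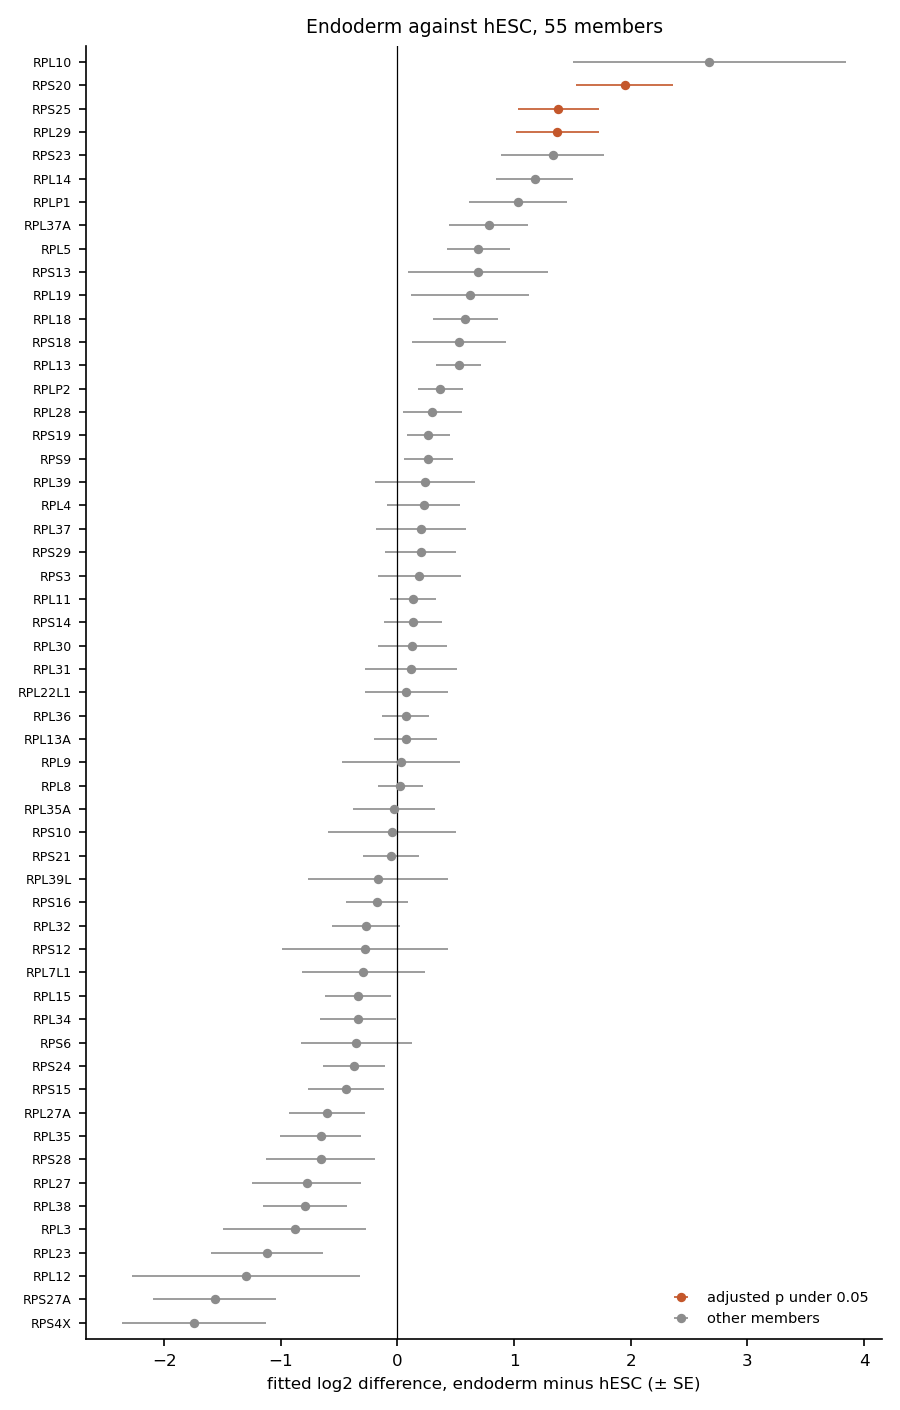
Fitted log2 difference, endoderm minus hESC, with its SE, for 55 members ordered by size. The 3 members with a limma adjusted p under 0.05 are RPS20, RPS25 and RPL29, RPL10 has the largest difference and the widest error, and RPS4X lies lowest.

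Paralogues of ribosomal proteins can replace or resemble the usual protein in some tissues. Of the pairs listed, RPL39 and RPL39L were measured on both sides. RPL39 had 41.4, 26.6 and 17.1 in endoderm, against 22.7, 28.1 and 17.7 in hESCs, and RPL39L had 35.2, 26.6 and 11.98 in endoderm, against 13.6, 29.2 and 40.8 in hESCs. Both overlapped between types (log2 difference 0.24 ± 0.43 and -0.17 ± 0.60, limma adjusted p = 0.719 and 0.865). RPL22L1 had 69.0, 83.2 and 58.2 in endoderm and 46.9, 73.9 and 82.1 in hESCs, with a difference of 0.08 ± 0.35 (limma adjusted p = 0.898). RPL7L1 had 30.4, 34.9 and 8.56 in endoderm and 53.7, 16.7 and 19.5 in hESCs, with a difference of -0.29 ± 0.53 (limma adjusted p = 0.722). RPS27L, a p53 target left out of the members by the rule, had 730, 130 and 548 in endoderm and 971, 168 and 530 in hESCs, so its G1/S library was the lowest in both types.

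The phase comparisons follow the messages as cells pass from G1 into S. By limma 0 members differed between G1/S and G1 and 0 between S and G1, as for 0% of all regions in each direction. At an unadjusted p under 0.05, G1/S was above G1 for 8 members (6% of all regions) and below it for 5 (7.66% of all regions), in all 22.4% of members, against 13.7% of all regions. For S against G1 there were 4 higher (2.05% of all regions) and 3 lower (1.34% of all regions), in all 12.1% of members, against 3.39%. Set against the mean of G1 and S, 8 members were higher (6.5% of all regions) and 8 lower (8.92% of all regions) in G1/S, in all 27.6% of members, against 15.4%, and 0 passed an adjusted p under 0.05 by limma, again with 0% of all regions. With edgeR 0 members were called in any phase comparison, as for 0% of all regions. With DESeq2, RPL14 was higher in G1/S than in G1 (1 of 58 members, against 0.506% of the regions it gave an adjusted p), RPL23, RPL27 and RPS4X were lower in G1/S than in the mean of G1 and S (3 of 58, against 1.83%), and 0 differed between S and G1 (0.00682% higher and 0% lower). Leaving out 1 library changed these counts, for the members and for all regions. Such a fit leaves 1 phase with a single library and 1 residual degree of freedom, so that the single library is assumed to vary like the others. Without hESC G1, limma called 4 members higher in G1/S than in G1 (among them RPL28, RPL8 and RPS14, against 1.54% of all regions), and 8 higher (2.8% of all regions) and 4 lower (3.45%) in G1/S than in the mean of G1 and S. Without endoderm G1 it called RPL14 and RPL37A higher in G1/S than in G1 (0.723% of all regions) and RPL14 and RPS12 higher in S than in G1 (1.15%). The same fit called 3 members higher (0.307%) and 2 lower (0.866%) in G1/S than in the mean of G1 and S. Without endoderm S it called RPL23, RPL27 and RPS4X lower in G1/S than in the mean of G1 and S (0.955% of all regions).

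Within each cell type a phase has 1 library, so the following are sizes with no test. In endoderm, G1/S was more than 2-fold above G1 for 7 members (14.9% of all regions) and below it for 8 (21.8% of all regions), and in hESCs for 12 (12.9% of all regions) and 10 (18.1% of all regions). Against G1, the G1/S library was more than 2-fold lower in both types for 6 members (RPL12, RPL23, RPL27, RPL32, RPS29 and RPS4X, 10.3%), as for 7.13% of all regions, and more than 2-fold higher in both for RPL18 and RPS10 (3.45%, against 2.38%). RPS29 had 404, 108 and 250 in endoderm and 239, 119 and 255 in hESCs. RPL32 had 171, 61.6 and 118 in endoderm and 210, 77.0 and 136 in hESCs. In RPS29 and RPL32 the G1/S library was the lowest of each type (G1/S minus G1, log2 -1.45 ± 0.37 and -1.45 ± 0.35, both with a limma adjusted p = 0.362). RPL18 went the other way, with 1581, 3352 and 3007 in endoderm and 1310, 3003 and 1209 in hESCs (1.14 ± 0.34, limma adjusted p = 0.362). RPS10 had a G1/S to G1 ratio of 2.68 in endoderm and 2.64 in hESCs, at 9 reads in endoderm G1.

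RPL14 had the largest positive difference of G1/S minus G1 among members over 1000, with a fitted log2 value of 1.66 ± 0.40 (limma adjusted p = 0.362). The G1/S to G1 ratio was 1.71 in endoderm and 5.85 in hESCs, where G1 was the lowest library. RPS4X had a ratio of 0.416 in endoderm and 0.0672 in hESCs, RPL23 had 0.436 and 0.178, and RPL27 had 0.441 and 0.474. Counted by rank, G1/S was the lowest library in both types for 9 members (15.5%, against 18.5% of all regions) and the highest in both for 13 (22.4%, against 24.5%), so neither order was more frequent here than over all regions.

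**Figure D5:**
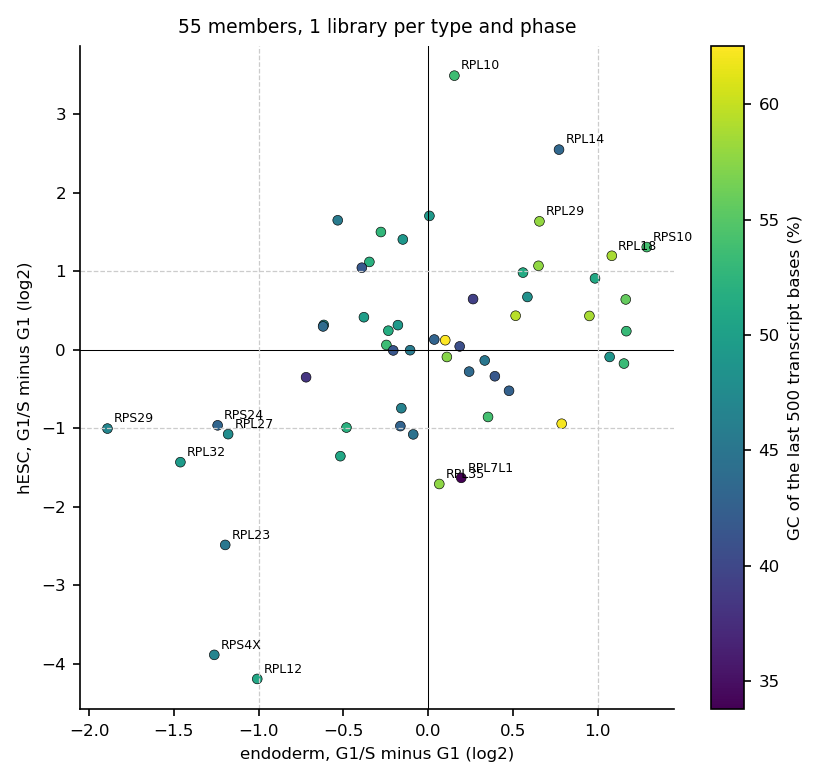
Log2(signal + 1) in G1/S minus G1 for 55 members, endoderm on the horizontal and hESC on the vertical axis, coloured by GC content, with dashed lines at 2-fold. RPS4X, RPL12 and RPL23 lie lowest in hESCs, RPS29 lowest in endoderm, and RPL18 and RPS10 lie beyond the upper line in both.

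The G1/S values differed between classes of level, without following its order, and leaned with GC content. Members with a mean signal over 1000 had a median of 0.48 for G1/S minus the mean of G1 and S, those between 100 and 1000 had -0.47 and those under 100 had 0.19, against 0.06 over all regions. Their median GC was 53.8%, 47.0% and 44.8%. The 30 members at or above the members' median GC had a median of 0.30 and the 28 below it had -0.12. Across the 58 members rho between GC and this difference was 0.34, and across 9907 named regions it was 0.50. The libraries themselves leaned by GC: across those regions, rho between GC and a library's deviation was -0.40, 0.26 and -0.15 in endoderm and -0.0066, 0.42 and -0.12 in hESCs. The part of GC in the member values was not tested beyond a fit corrected for it, made on the 9907 named regions only. In that fit 0 members were called between phases, and RPS20, RPS25 and RPL29 kept their calls between cell types, joined by RPL14. The share of regions called in it is not given here, so these counts cannot be set against other regions.

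The S libraries of the types lay far apart for single members, again with 1 library each and no test. In hESCs, 14 members were more than 2-fold higher in S than in G1 (24.1%, against 15.4% of all regions), and in endoderm 5 were (8.62%, against 10.6%). No member was more than 2-fold higher in both types (0 of 58, against 1.39% of all regions). More than 2-fold lower in S than in G1 were 6 members in endoderm (12.6% of all regions) and 3 in hESCs (10.1% of all regions). RPS12, a protein of the 40S beak, had 181, 163 and 226 in endoderm and 55.2, 148 and 1447 in hESCs, a ratio of S to G1 of 1.25 in endoderm and 26.2 in hESCs. RPL27 had 604, 266 and 722 in endoderm and 578, 274 and 3713 in hESCs. RPS6, the substrate of the S6 kinases, had 253, 220 and 181 in endoderm and 177, 176 and 675 in hESCs. In RPS12, RPL27 and RPS6 the single hESC S library was the highest of all 6, and it is also the deepest. The median of all 58 members in that library was 517, against 193 to 388 in the other 5, while their summed signal (138650) lay within the range of the others (127715 to 197221).

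Fitted over both types, RPS12 had the largest S minus G1 difference (2.50 ± 0.87, limma adjusted p = 0.982). RPL27 followed with 1.47 ± 0.57, RPL29 with 1.24 ± 0.43, RPL37 with 1.09 ± 0.47 and RPS21 with 0.98 ± 0.29, each with the same limma adjusted p of 0.982. RPS21 had 572, 482 and 969 in endoderm and 500, 522 and 1149 in hESCs, so that S was the highest library of each type, at a ratio of S to G1 of 1.69 in endoderm and 2.30 in hESCs. Another RPS21 region, of somewhat lower mean, did not share this. There the signal was 674, 521 and 508 in endoderm and 722, 512 and 679 in hESCs (S minus G1, -0.25 ± 0.29, limma adjusted p = 0.982). The lowest were RPL7L1 (-1.57 ± 0.65), RPL34 (-0.999 ± 0.40), RPS24 (-0.87 ± 0.32), RPL39 (-0.78 ± 0.52) and RPL35 (-0.60 ± 0.42), again at a limma adjusted p of 0.982. RPL7L1 was more than 2-fold lower in S than in G1 in both types, as 1.44% of all regions were, with 5 reads in endoderm S. RPS24 had 560, 236 and 243 in endoderm and 583, 299 and 400 in hESCs, and RPL34 had 129, 121 and 82.2 in endoderm and 243, 115 and 94.5 in hESCs, where G1 was the highest library of each type.

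Other genes of the translation machinery gave a background for the members in the endoderm comparison. Ribosomal proteins whose symbols do not follow the rule changed in 0 of 5 cases by limma (14.5% of all regions), with a median log2 difference of 0.07. They include FAU (9036, 14261 and 8230 in endoderm and 9400, 12257 and 11446 in hESCs) and GNB2L1, the scaffold protein RACK1 (12216, 24040 and 17983 in endoderm and 7627, 19679 and 10262 in hESCs). FAU thus overlapped between types. Of 20 other genes with TOP messages, 2 rose (6.9% of all regions), 0 fell (7.6%) and 18 did not pass (median 0.34). They were VIM, the intermediate filament protein vimentin (1.05 ± 0.27, limma adjusted p = 0.0431), and TPT1 (1.05 ± 0.28, limma adjusted p = 0.0488).

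Of 37 ribosome biogenesis genes, 3 rose (6.9% of all regions) and 0 fell (7.6% of all regions), with a median of 0.22. NCL, the nucleolar protein nucleolin, had a log2 difference of 1.61 ± 0.43 (limma adjusted p = 0.0466), NIP7 had 1.21 ± 0.32 (limma adjusted p = 0.0453) and RRP9 had 0.9997 ± 0.27 (limma adjusted p = 0.0490). The signal of NCL was 863, 275 and 1641 in endoderm, against 393, 163 and 209 in hESCs, so the types overlapped. RNA polymerase I genes changed in 0 of 12 cases (14.5% of all regions), with a median of 0.26. Among 16 regulators of TOP messages and of ribosomal genes 2 rose (6.9% of all regions) and 0 fell (7.6%), with a median of 0.06. MYC, a transcription factor that drives ribosomal genes, had 30.4, 21.6 and 27.4 in endoderm, against 6.05, 6.25 and 6.50 in hESCs (1.91 ± 0.50, limma adjusted p = 0.0443). LARP1 had 1147, 1208 and 1741 in endoderm, against 673, 768 and 766 in hESCs (0.87 ± 0.23, limma adjusted p = 0.0483). MYC and LARP1 did not overlap between the types, and MYC had only 6 to 11 reads in the hESC libraries. Of 71 mitochondrial ribosomal protein genes 1 fell (7.6% of all regions) and 0 rose (6.9%), with a median of -0.20. The gene that fell was MRPS26 (-1.10 ± 0.25, limma adjusted p = 0.0300). In the phase comparisons 0 genes of these lists passed an adjusted p under 0.05 by limma. Whether the calls on genes of these lists between cell types held in the alternative fits is not given here.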

How the data were processed

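Polyadenylated RNA of 6 libraries was read at its 3′ ends after 15 amplification cycles, per the labels' protocols. Per the submitters' processing notes, CASAVA 1.5, Bowtie 0.12.7, DESeq 1.5.24, hg18 and NCBI36 served in the processing, in roles not stated. The authors deposited 1 table of signal per region and library. At a tolerance of 1e-06, 100% of the values are whole reads divided by 1 constant per library, and no value column was left unused.

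Regions with log2(value + 1) of at least 1 in 3 libraries were kept (14657, with 29 removed). This scale understates changes of low genes. A limma 3.58.1 fit in R 4.3.3, with cell type, phase and an intensity trend, had 2 residual and 5.46 prior degrees of freedom, and p-values were adjusted by Benjamini-Hochberg over all regions at 0.05. A phase was assumed to act alike in both types. Libraries of the same phase pair across the types by their labels, so the phase term is the replicate block. Recovered counts were also tested with edgeR 4.0.16 and DESeq2 1.42.0, as the deposited values allowed. No type and phase has a second library, and separate cultures are not stated, so p-values measure the spread between these libraries, which may be technical. Means are given ± SD over the 3 phases of a type.

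GC content came from GENCODE v29 transcripts (last 500 bases, 95.7% of named regions and all 58 members), processed copies from pseudogene names there, and start sequences from RefSeq (GRCh38.p14). Strand-specific counting is not stated in the sources used here. The members and gene lists were chosen with earlier results of these data known. Values are given for the 5 members with the largest differences in each direction of 3 comparisons, paralogues, stalk proteins, the MDM2-binding RPL5 and RPL11 and the 5 highest and 3 lowest by level. The values of RPL13, RPL28, RPL35A, RPL36, RPL37A, RPS6, RPS13, RPS15 and RPS19, those of the lower regions of RPL30 and RPS21, and the genes named beside counts were chosen after they were seen. Some members are counted in every fit and total and not reported here by name or shown in the figures. Other scalings, filters, GC correction, tools and left-out libraries were tried as alternatives.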

Additional observations from a re-analysis of the deposited data

Results flagged for a closer look

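RPL39L, a paralogue of RPL39, moved in opposite directions between the cell types from G1 to S. The log2 difference of S minus G1 was -1.48 in endoderm, where the signal was 11.98 in S against 35.2 in G1, and 1.51 in hESCs, where it was 40.8 in S against 13.6 in G1. The 2 differences lie -2.99 apart on the log2 scale, endoderm minus hESC. This was not tested, since each type and phase has 1 library, and endoderm S holds 7 reads. Opposite signs were not particular to RPL39L. S minus G1 was 2.46 in endoderm and -0.81 in hESCs for RPL10, and -0.48 and 1.93 for RPS6.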

How the results depend on the processing

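The counts of called members rest on single libraries and on the tool. For endoderm against hESC, members called higher (3) became 0 without an intensity trend or without both G1/S libraries, 1 with quantile normalisation (RPS20) or edgeR, 6 with DESeq2 and 0 to 4 when 1 library was left out. Members called lower (0) became 1 with quantile normalisation, and 1 (RPS4X) with DESeq2 or without both G1/S libraries, and 0 to 1 with 1 library left out. Without the replicate block, here the phase term, 2 were called higher (RPS20 and RPS25). The share of all regions called between the cell types is given above for edgeR and DESeq2. It is not given for the other alternatives, so their counts cannot be set against other regions. With 1 library left out, members called in G1/S against G1 numbered 0 to 4 higher, in S against G1 0 to 2 higher, and in G1/S against the mean of G1 and S 0 to 8 higher and 0 to 4 lower. DESeq2 called 1 member higher in G1/S than in G1 and 3 lower in G1/S than in the mean of G1 and S.

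The median of the members for G1/S against G1 (0.02) was 0.034 with a pseudocount of 5, 0.032 with quantile normalisation, 0.014 with the stricter filter, 0.22 after GC correction, -0.022 with edgeR and 0.051 with DESeq2. It ran from -0.14 to 0.24 with 1 hESC library left out and from 0.011 to 0.13 with 1 endoderm library left out. For S against G1 (0.12) the left-out range was -0.13 to 0.30. The median for endoderm against hESC (0.09) became -0.05 with quantile normalisation, and -0.05 to 0.23 with 1 library left out. Over reads in named regions the members' share was 3.71% in endoderm and 3.92% in hESCs. With quantile normalisation 4 members lay below hESCs without overlap, and G1/S was highest in both types for 8. The shares of all regions with that scaling are not given here, so these counts cannot be set against other regions. The cause was not tested, except that leaving out a library leaves fewer samples. Members under 10 reads in a library are limited by depth, and only large changes can be seen there.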
